A study of Canis lupus familiaris with 37 samples.

Results

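CL-1 is a canine T-cell lymphoma line kept in culture, and its 2 samples were compared with 4 non-neoplastic canine lymph nodes that served as controls. These 6 samples, taken by their titles, belonged to a series of 37 canine samples. The other 31 samples were lymphomas (12 of B cells and 4 probably of T cells) and the lines CLBL-1, CLBL-1M, GL-1 and OSW, which had 15 samples. CLBL-1, CLBL-1M and GL-1 are of B-cell origin and OSW, like CL-1, is a T-cell line. No sample received a treatment, and the lines shared a medium with fetal bovine serum and antibiotics. Ages and genotypes were not given for these groups. The 2 CL-1 samples are of 1 line, so they show the spread of that line and not that of T-cell lymphomas. The p-values rest on a spread pooled over the groups of all 37 samples, most of which are not CL-1 or control. Nothing states that the 2 CL-1 samples came from separate cultures, so their part of that spread may be technical.

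A lymph node is a mixture of B cells, T cells, macrophages, dendritic cells, vessels and stroma, of which few divide at a given time, whereas a line is a population of 1 lineage that divides continuously. In B cells the antigen receptor signals through kinases of the Src, Syk and Tec families. MHC class II molecules present peptides of extracellular origin to helper T cells, and in dogs, unlike mice, resting T cells carry them too. A lower level in CL-1 can therefore mean fewer cells of a type or less RNA per cell, and these bulk counts cannot tell these apart.

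Each sample had a count of reads for every Ensembl gene. The totals were 2910014 and 3225802 reads in CL-1, between 1962722 and 3034152 in the controls and between 1980761 and 3414487 in the other lines. Over a whole group, 3 counts, the smallest level taken as visible, corresponded to 0.489 CPM (counts scaled to the sample's total) in CL-1 and 0.316 CPM in the controls, which covers counting error only. The labels conflict in places. The source field of control 4 names a T-cell lymphoma line, and the flow cytometry field assigns lymphoma classes to all 4 controls and a B-cell origin to CL-1. Reads on more than 1 gene made up 2.78% of the reads on genes in control 4, between 0.573% and 0.616% in controls 1 to 3, and 1.67% and 1.68% in CL-1. Control 4 also stood further from the other controls than these did from each other, with a chi-square per degree of freedom over genes of 23.6 to 26.8 against 10.8 to 18.5. The CL-1 samples gave 2.46, which exceeds sampling noise, and they were counted as 2 samples. Counts of genes called are therefore given with all controls and against control 4 alone, and without control 4 where that moves them by over 1.5 times, and the part of the share of ambiguous reads in them was not tested.

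Of 15162 genes tested, CL-1 was higher than the controls at 689 and lower at 641 at an adjusted p-value of at most 1e-05 in the quasi-likelihood test of edgeR. These are 4.54% and 4.23% of the genes tested, or 8.77% for both directions. The changes were unequal in estimated size. The median log2 fold-change was 2.37 among the genes called higher and -7.54 among those called lower, against -0.23 over all genes tested. Of the genes called lower, 204 had no count in either CL-1 sample, and 8 of those called higher had none in any control. Without a count in a group, the size of a fold-change is not measured. These 2 medians were not computed with such genes set to the smallest visible level. Both CL-1 samples lay above all controls at 4806 genes (31.7%) and below all controls at 5794 genes (38.2%), and all 1330 genes called were among them. Against control 4 alone, edgeR called 305 genes (2.01%), 27 higher (0.178%) and 278 lower (1.83%), with the single node assumed to vary like the other groups. All 1330 genes kept their direction against control 4, which the absence of overlap had fixed. The median log2 fold-changes of the same genes against control 4 were 2.31 for those called higher and -7.35 for those called lower, a comparison that shares the CL-1 samples and control 4 with the first. Without control 4, 608 genes were higher and 635 lower. With CL-1 sample 1 left out 359 genes were called, and with CL-1 sample 2 left out 319. In a fit of the 6 samples alone, which takes its spread from them only, 88 were called, 32 higher and 56 lower.

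**Figure D1:**
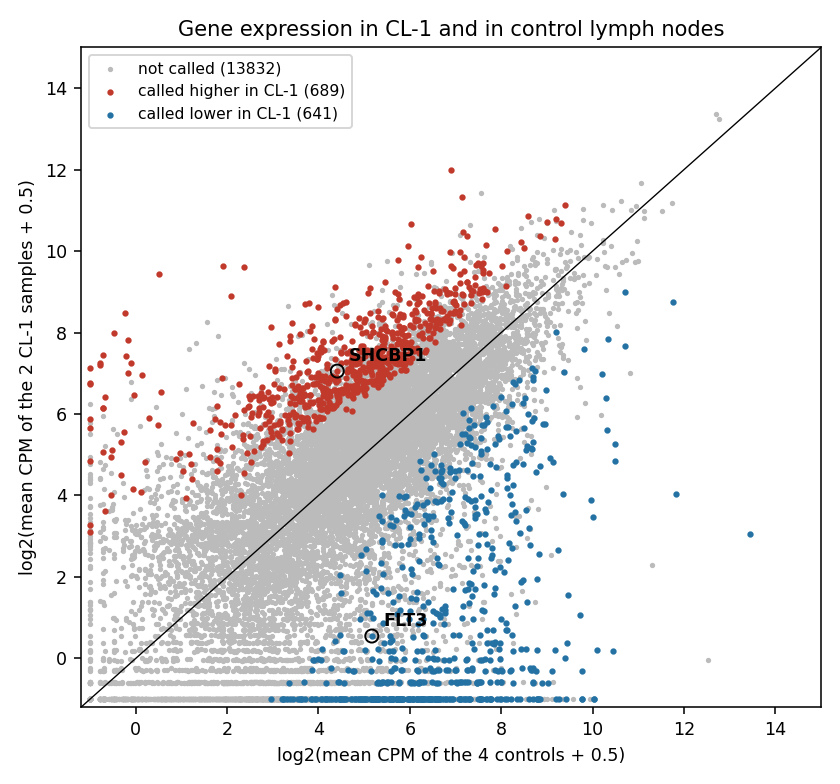
Mean CPM of every tested gene in the 4 controls (x axis, log2 after adding 0.5) and in the 2 CL-1 samples (y axis, same scale), with 1 point per gene. The 689 genes called higher (red) lie in a band above the line of equality, while many of the 641 called lower (blue) lie at the bottom of the plot, where CL-1 had few or no counts.

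Genes without a count in 1 group and expressed in the other were found in both directions. Among 11203 genes with at least 5 CPM in each of the 4 controls, 794 (7.09%) had no count in either CL-1 sample. Among 10383 genes with at least 5 CPM in both CL-1 samples, 37 (0.356%) had no count in any control. Of the 794 genes, 118 were without a count in all 15 samples of the other lines as well, and 49 had at least 5 CPM in each of them. Of the 37 genes, 6 had no count in any other line and 0 had at least 5 CPM in each. The rules are unequal, since the first asks for 0 counts in 2 samples and the second for 0 counts in 4 samples of a mixed tissue with a lower floor, which favours the first. The numbers describe the libraries and carry no test.

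The count files name genes by Ensembl identifier only, and only SHCBP1 and FLT3 were paired with their symbols here. The markers of T cells, B cells and stroma were thus not looked up, and the T-cell label of CL-1 was not checked by them. The genes below are described through the functional lists of the study, which give identifiers. Some genes are in several lists and are counted in each. Those lists were drawn from genes that changed in these samples, so a list's direction is not independent evidence. Of the 1419 genes in the study's lists, 10.5% were called higher in CL-1 than in the controls and 14.1% lower. The counts called in each list can be read against these shares. For members beyond every control no such share was computed for the listed genes. Over all genes tested, 31.7% lay above every control in both CL-1 samples and 38.2% below. Shown as examples are the 2 genes with the largest change in each direction.

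ENSCAFG00000000127, which is in no functional list, had 131 and 147 CPM in CL-1 and no count in any of the 4 controls. It was at least 441-fold higher in CL-1, with 3 counts over the controls as the floor (edgeR adjusted p = 4.59e-06). CLBL-1, CLBL-1M and GL-1 held it at 1.26 to 8.20 CPM, so it was not confined to CL-1. ENSCAFG00000006714, listed as an ATP-binding protein, had 104 and 112 CPM in CL-1 and was without a count in the controls and in all samples of the other lines. It was at least 342-fold higher than in the controls (edgeR adjusted p = 1.71e-07). In DESeq2 without a prior it missed the threshold (adjusted p = 0.0841).

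ENSCAFG00000008404, listed under tumor necrosis factor production, had no count in CL-1 and 987, 1235, 1171 and 766 CPM in controls 1 to 4. It was at least 2134-fold lower in CL-1 (edgeR adjusted p = 3.60e-07). Every B-cell lymphoma carried it, at 169 to 863 CPM, and so did every probable T-cell lymphoma, at 16.5 to 286 CPM. The highest value in any other line was 0.293 CPM. ENSCAFG00000024867, which is in no functional list, had no count in CL-1 and 2139, 463, 912 and 647 CPM in the controls. It was at least 2123-fold lower in CL-1 (edgeR adjusted p = 5.34e-08).

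The genes of B-cell receptor signalling were mostly lower in CL-1. Of 20 members, 10 were called lower and 1 higher, with a median log2 fold-change of -5.37. Their CPM summed to 765 and 767 in CL-1 and to 3499, 3535, 3920 and 4259 in the controls, which is 4.97 times as much on average, and the groups did not overlap. The lowest member had no count in CL-1 and 218 to 313 CPM in the controls. The member called higher is also among those called higher in the cell cycle list. It had 529 and 545 CPM in CL-1 and 88.7 to 136 CPM in the controls (log2 fold-change 2.30 ± 0.36 SE, edgeR adjusted p = 4.26e-06). Across the lines the summed CPM was 868 to 973 in OSW, the other T-cell line, 2165 in GL-1, and 3865 to 4585 in CLBL-1 and CLBL-1M. Against control 4 alone 9 members were called lower, and with either CL-1 sample left out 5 were.

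The list of haematopoietic cell lineage genes, which holds surface molecules that mark lineages and stages, had 11 of its 25 members called lower and 0 higher. All 25 members were below every control in both CL-1 samples, against 38.2% of all genes tested, and 9 had no count in CL-1. The median log2 fold-change was -6.20, or -5.29 with genes at 0 set to the floor of 3 counts. The summed CPM was 371 and 357 in CL-1, and 4488, 3977, 5002 and 4462 in the controls. One member fell from 882, 899, 1135 and 1446 CPM in the controls to 0.687 and 0.620 CPM in CL-1 (log2 fold-change -10.6 ± 0.84 SE, edgeR adjusted p = 1.47e-11). On this list control 4 lay within the range of the other nodes. The other lines had higher sums than CL-1, between 1468 in GL-1 and 3295 in OSW, although in the test against these lines 1 member was called, lower in CL-1, and 0 without either CL-1 sample. When compared with control 4 alone, 5 members were called lower. Leaving out either CL-1 sample reduced the members called lower to 1, and without control 1 or control 3 the count was 7.

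Of the genes of immune communication that passed the threshold, more were lower than higher in CL-1, except among genes that restrict viral genome replication. Cytokine and cytokine receptor genes had 7 of 24 members called lower and 1 higher, with a median of -6.16 (-5.15 with genes at the floor). The member called higher had 134 and 143 CPM in CL-1 and 11.9 to 26.9 CPM in the controls. Genes of type I interferon production had 7 of 17 members called lower and 1 higher (median -5.43). T-cell activation genes had 6 of 30 called lower and 3 higher, shares not far from the 14.1% and 10.5% of all listed genes. Their median was -3.19, with sums of 2327 and 2512 CPM in CL-1 against 5036 to 6204 CPM in the controls. Genes that restrict viral genome replication had 2 of 20 members called lower and 3 higher, shares close to those of all listed genes. Their median was -6.10, and 12 members lay below every control, against 38.2% of all genes tested. Their sum of 1833 and 1819 CPM in CL-1 lay inside the range of the controls (1205 to 4685 CPM). Against control 4 alone the members called lower numbered 5 for the cytokine list, 4 for type I interferon production, 5 for T-cell activation and 2 for viral restriction, and 0 were called higher. Without either CL-1 sample, the members called lower numbered 0 for the cytokine list and 1 each for type I interferon production, T-cell activation and viral restriction. The single members called higher in the B-cell receptor, cytokine and interferon lists were near the threshold and missed it without either CL-1 sample or without control 2 or 3. Without control 1 the cytokine member kept its call and the others did not, and without control 4 only the interferon member kept it. For T-cell activation the members called higher numbered 2 without control 2 and 1 without any other of the 6 samples, in place of 3.

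Genes of extracellular matrix binding, a function of the fibroblasts and vessels of a node, had low levels in CL-1, but few passed the threshold. The sums for extracellular matrix binding were 47.8 and 47.4 CPM in CL-1 and 1189, 1522, 1073 and 778 CPM in the controls, 24 times as much on average. Among the other lines these sums were 8.33 to 23.7 CPM in CLBL-1 and CLBL-1M, 134 to 184 CPM in OSW and 598 CPM in GL-1. All 13 members were below every control, against 38.2% of all genes tested, and 2 were called lower. ECM-receptor interaction summed to 248 and 266 CPM in CL-1 and to 1530 to 2247 CPM in the controls. Of its 20 members, 18 were below every control, 7 had no count in CL-1 and 3 were called lower, while 2 had a positive log2 fold-change. Its sums were 310 to 704 CPM in CLBL-1 and CLBL-1M and 356 CPM in GL-1. In OSW they were 1262 to 1609 CPM, which overlapped the controls. Of the cell-cell adherens junction list, 2 of 18 members were called lower and 0 higher, and the sums of 1678 and 1719 CPM in CL-1 lay within the 1640 to 1869 CPM of the controls. The members called lower in these lists were close in share to the 14.1% of all listed genes. They numbered 0, 1 and 0 in the matrix binding, ECM-receptor and junction lists against control 4 alone. With either CL-1 sample left out, 0 members of these lists were called lower. For the matrix binding list 1 member passed without control 1, 2 or 3, and for the junction list 0 passed without control 2 or 3 and 1 passed without control 1 or 4. Without control 4, 1 junction member was called higher.

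Genes of the DNA replication machinery were mostly higher in CL-1. Of 35 members, which include enzymes and factors that copy DNA, 19 were called higher and 0 lower (median log2 fold-change 2.10). In both CL-1 samples 31 members were above every control, against 31.7% of all genes tested, and the other 4 were below every control. The summed CPM was 5987 and 5818 in CL-1 and 2094, 1733, 1890 and 1799 in the controls, a 3.14-fold difference of the means. The member with the largest change had 123 and 89.3 CPM in CL-1 and 4.78 to 10.6 CPM in the controls (log2 fold-change 3.75 ± 0.41 SE, edgeR adjusted p = 9.52e-09). The other lines had sums of 3484 to 6442 CPM, which span those of CL-1, and in the test of CL-1 against them 1 member was called. Against control 4 alone the median was 2.25 and 1 member was called higher, and with either CL-1 sample left out 9 were.

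Kinetochore and sister chromatid segregation genes, which attach chromosomes to the spindle and part them, had 13 of 28 members called higher and 1 lower (median 2.22). Their sum was 2816 and 2740 CPM in CL-1 and 747 to 927 CPM in the controls. The exception had no count in CL-1 and 51.6, 40.3, 41.9 and 51.3 CPM in the controls, and so was at least 94.2-fold lower (edgeR adjusted p = 5.38e-15). Of 27 cell cycle genes, 6 were called higher and 1 lower (median 1.22), with sums of 4461 and 4454 CPM in CL-1 and 1535 to 1703 CPM in the controls. Each of these 2 lists had 4 members below every control in both CL-1 samples. In the comparison with control 4 alone edgeR called 0 members of these 2 lists higher and 1 of each lower, with medians of 2.25 and 1.35. The kinetochore members called higher numbered 3 and 4 without CL-1 samples 1 and 2, and 8 without control 2. The cell cycle members called higher numbered 3 and 2 without these CL-1 samples.

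**Figure D2:**
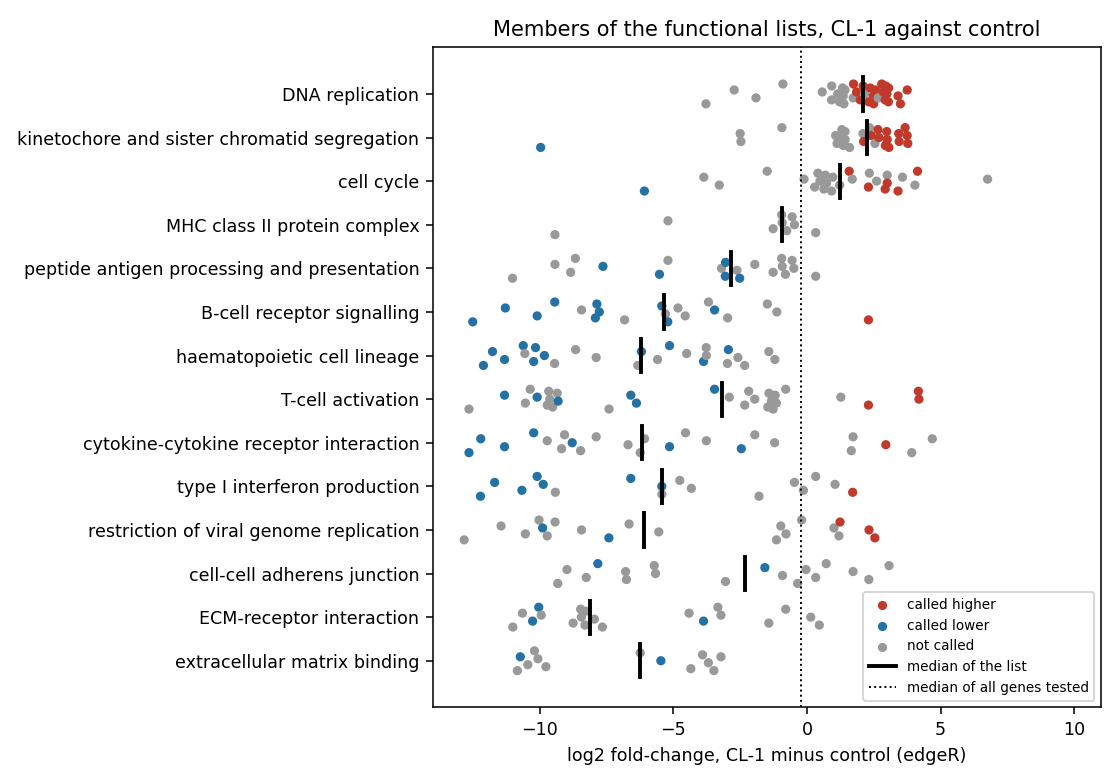
Log2 fold-change of each member of 14 functional lists in CL-1 against the controls (x axis), with 1 point per gene, red or blue where called higher or lower and grey where not called. Black bars mark each list's median, which is 2.10 for DNA replication and -6.20 for haematopoietic cell lineage, and the dotted line marks the median of all genes tested (-0.23).

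SHCBP1 (ENSCAFG00000003704), a protein with a role in cell division that the study itself picked out, had 141 and 124 CPM in CL-1 and 30.6, 13.8, 25.7 and 13.0 CPM in the controls. Both CL-1 samples were above every control (log2 fold-change 2.64 ± 0.38 SE, edgeR adjusted p = 1.03e-06). The difference from control 4 alone was 3.41 ± 0.65 SE (edgeR adjusted p = 1.83e-04). The level of CL-1 overlapped with those of OSW (96.8 to 128 CPM) and CLBL-1M (82.3 to 135 CPM) and was just above CLBL-1 (75.2 to 122 CPM). The log2 differences of CL-1 from these lines were 0.04, 0.01 and 0.18 (edgeR adjusted p = 0.994, 1 and 0.789). GL-1, with 1 sample, had 0.350 CPM.

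FLT3 (ENSCAFG00000006716), a receptor tyrosine kinase of early haematopoietic progenitors and dendritic cells that the study also named, was nearly absent in CL-1. It had 2 and 4 counts there, or 0.687 and 1.24 CPM, and 42.0, 30.1, 37.9 and 31.7 CPM in the controls. The groups did not overlap (log2 fold-change -5.15 ± 0.82 SE, edgeR adjusted p = 5.99e-06). Against control 4 alone the log2 fold-change was -4.89 ± 0.93 SE (edgeR adjusted p = 1.80e-04). CLBL-1, CLBL-1M and OSW were also low, between 0.298 and 3.16 CPM, and the log2 differences of CL-1 from them were -0.995, 0.04 and -0.82 (edgeR adjusted p = 0.379, 1 and 0.498). GL-1 had 496 CPM. SHCBP1 and FLT3 lay close to the threshold. Without CL-1 sample 1 the edgeR adjusted p-values were 5.93e-05 for SHCBP1 and 0.00119 for FLT3, and without CL-1 sample 2 they were 2.75e-05 and 6.15e-04. SHCBP1 also missed it without control 2 (edgeR adjusted p = 1.11e-05), and FLT3 without control 1, 2 or 3 (edgeR adjusted p = 1.66e-05, 1.20e-05 and 1.51e-05).

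**Figure D3:**
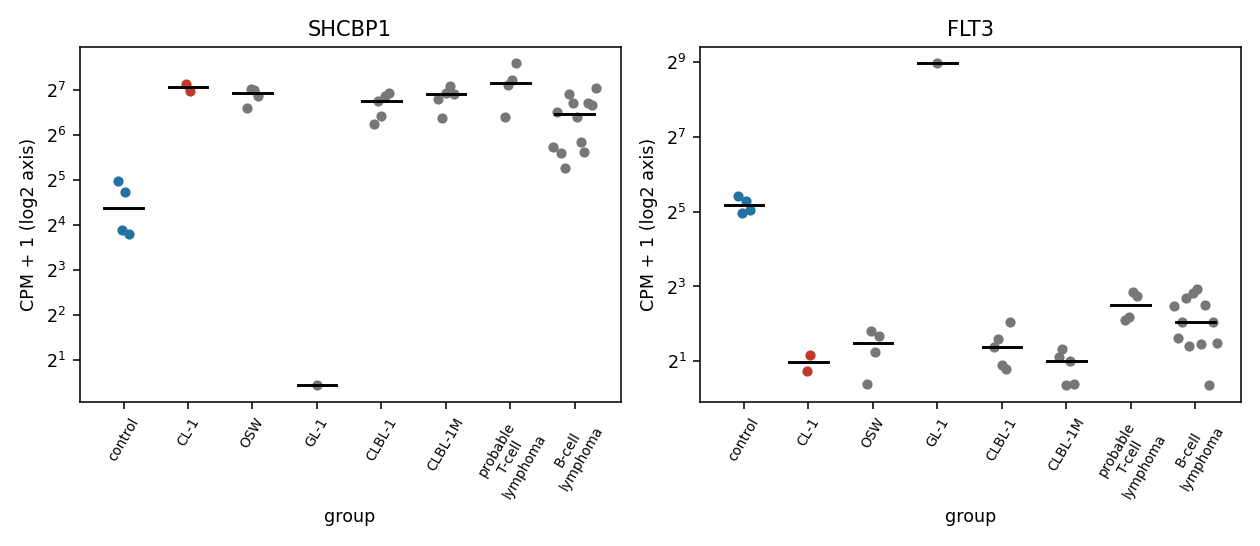
CPM of SHCBP1 (left) and FLT3 (right) in each of the 37 samples by group, on log2 axes after adding 1, with 1 point per sample and a bar at the group's median. For SHCBP1 the 2 CL-1 samples (red, 124 and 141 CPM) sit above the 4 controls (blue, 13.0 to 30.6 CPM), and for FLT3 they sit below them.

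The MHC class II genes stood between the other lists. Of 9 members, 0 were called in either direction against the controls, with a median log2 fold-change of -0.93. The count of 0 in edgeR rests on the strict threshold, since DESeq2 called 2 members lower and edgeR gave 4 members, all lower, an unadjusted p-value under 0.05. The summed CPM was 5715 and 5830 in CL-1 and 10221, 10195, 11556 and 8779 in the controls, so the groups did not overlap, and against control 4 alone 0 members were called as well. The controls averaged 1.77 times as much. This sum hides an uneven list. For 7 members the log2 fold-change lay between -1.27 and 0.32 and CL-1 held 259 to 2124 CPM. The other 2, singled out after their values were seen, were far lower. The lowest member had 0.687 and 0 CPM in CL-1 and 245, 262, 283 and 225 CPM in the controls (log2 fold-change -9.43 ± 1.60 SE, edgeR adjusted p = 1.37e-05). The next had 9.97 and 14.6 CPM in CL-1 and 435, 416, 505 and 435 CPM in the controls (log2 fold-change -5.21 ± 1.35 SE, edgeR adjusted p = 0.00184). Members of this family resemble each other in sequence, and how reads shared between copies were divided could affect single values.

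Against the mean of the other 4 lines, 671 genes were called (4.43%), of which 405 were higher in CL-1 (2.67% of those tested) and 266 lower (1.75%). Of the MHC class II list, 7 of 9 members were called higher and 0 lower (median 2.73), where 5.71% of the genes in the study's lists were called higher. The sums were 20.6 to 32.4 CPM in OSW and 95.6 CPM in GL-1, but 7428 to 10958 CPM in CLBL-1 and CLBL-1M, above CL-1. Taken line by line, 7 members were higher in CL-1 than in OSW (median log2 difference 7.18) and 5 than in GL-1 (6.97), whose 1 sample was assumed to vary like the other groups. The count of 7 against all 4 lines was 6 without CL-1 sample 1 and 5 without CL-1 sample 2. Over all genes tested, CL-1 was higher than OSW at 1.83% and lower at 2.25%, and higher than GL-1 at 0.284% and lower at 1.11%. Against CLBL-1 and CLBL-1M, edgeR called 0 members and the medians were -1.26 and -1.19, with 5 members at an unadjusted p-value under 0.05 in each comparison. Over all genes tested, 3.1% were higher and 2.72% lower than in CLBL-1, and 3.23% higher and 2.77% lower than in CLBL-1M. The probable T-cell lymphomas had sums of 815 to 2501 CPM, below both CL-1 samples. The list of peptide antigen processing and presentation had 5 of 20 members called lower than in the controls and 0 higher. Its sums in CL-1, 5564 and 5601 CPM, were below the 5715 and 5830 CPM of the MHC class II list. It therefore does not hold all 9 of those members, and any members that both lists hold are counted in each. The members called lower numbered 2 against control 4 alone, 2 without CL-1 sample 1 and 1 without CL-1 sample 2. In the test against the other lines 5 of its members were higher in CL-1 and 1 lower.

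**Figure D4:**
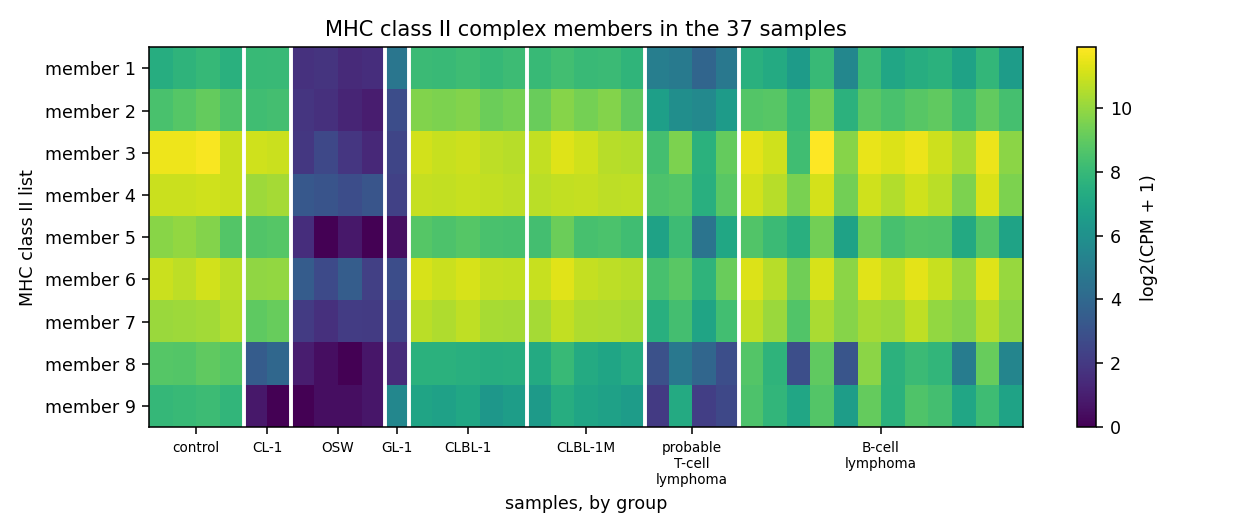
Levels of the 9 MHC class II list members (rows, ordered from the highest to the lowest log2 fold-change of CL-1 against control) in the 37 samples (columns, by group), as log2(CPM + 1) on the colour scale. CL-1 is bright for members 1 to 7 and dark for members 8 and 9, while the OSW samples are dark for all 9.

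In the same test, B-cell receptor signalling had 6 members lower and 1 higher in CL-1, although the sums of OSW (868 to 973 CPM) were close to those of CL-1 and the higher sums were those of the B-cell lines. Among the 6 was a member without a count in CL-1 that had at least 21.1 CPM in each of the other 35 samples, OSW included. Without either CL-1 sample the 6 became 2. The cell-cell adherens junction list had 4 of 18 members higher and 0 lower, with the sums of CL-1 inside the range of the other lines (1183 to 3828 CPM). The 2 genes with the largest positive difference were ENSCAFG00000031652, listed as a cell adhesion molecule, and ENSCAFG00000007923. The first had 171 and 167 CPM in CL-1, no count in any sample of the other lines and 40.4 to 146 CPM in the controls. Its log2 fold-change against the controls was 0.84 ± 0.82 SE (edgeR adjusted p = 0.40), and that against the other lines passed the threshold (edgeR adjusted p = 6.19e-08). The second had 396 and 415 CPM in CL-1, at most 0.356 CPM in any sample of the other lines and 26.5 to 53.4 CPM in the controls (log2 fold-change against the controls 3.33 ± 0.60 SE, edgeR adjusted p = 6.11e-05).

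Some genes were missing in CL-1 but present everywhere else. No count was found in either CL-1 sample for 31 genes that had at least 5 CPM in each of the other 35 samples, nodes, lymphomas and lines alike. Their medians over those 35 samples lay between 24.3 and 141 CPM. As they were chosen by these values, this is a description without a test. The same definition gave 0 genes for OSW (4 samples), 2 for CLBL-1 and CLBL-1M together (10 samples) and 20 for GL-1 (1 sample), numbers that depend on how many samples had to be at 0. In 2 of the 31 genes the fall against the other lines was the largest of any gene called. ENSCAFG00000019271 ranged from 81.3 to 272 CPM in the other samples, and ENSCAFG00000011039 from 37.3 to 463 CPM. They were at least 328-fold and 379-fold lower in CL-1 than in the controls. The kinetochore gene without a count in CL-1 was also among the 31, and so was a member of the B-cell receptor list.

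**Figure D5:**
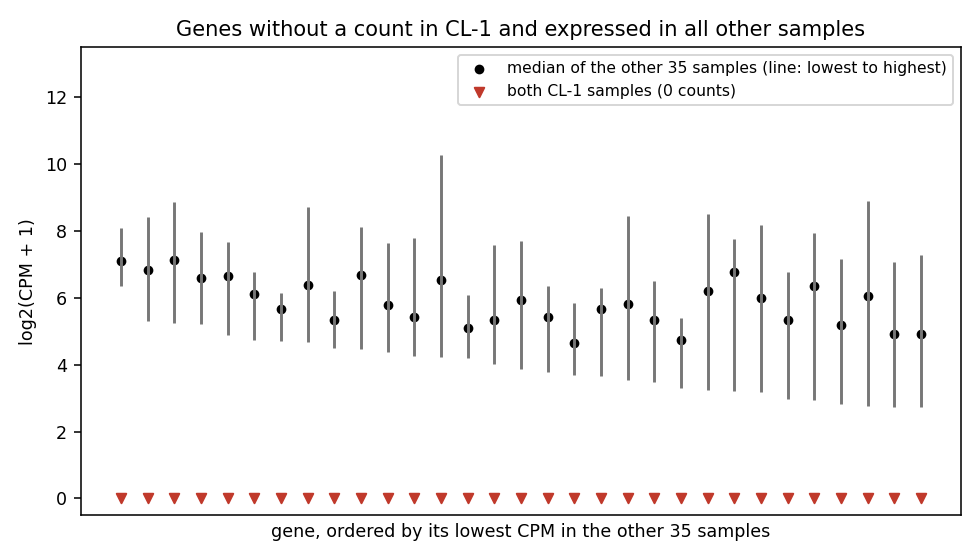
The 31 genes without a count in CL-1 and with at least 5 CPM in the other 35 samples (x axis, ordered by their lowest level there), as log2(CPM + 1). Lines run from the lowest to the highest of the 35 samples with the median as a dot, and the red triangles mark the 0 counts of both CL-1 samples.

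The study also listed noncoding genes, which it had called as changed in these samples, so their direction is not independent evidence. Of the 9 microRNA loci of the study 0 were called in edgeR at the threshold. In that test 8 had an unadjusted p-value under 0.05, 3 of them higher in CL-1 and 5 lower. The sums over the 9 loci were 221 and 255 CPM in CL-1 and 406 to 460 CPM in the controls. Without control 4, 3 loci were called higher and 1 lower, and DESeq2 with a prior called 1 lower. Libraries of poly-A RNA measure the host transcripts of such loci and not the mature microRNAs. Of 96 long noncoding RNA genes tested, 3 were called higher and 10 lower (median -1.06), against 4.54% and 4.23% of all genes tested. With control 4 as the only control, 0 were called higher and 2 lower, and 0 microRNA loci were called. Without CL-1 sample 1 or 2, 0 were called higher and 1 lower. The members called higher also numbered 0 without control 1 and 1 without control 2 or 3, and those called lower numbered 5 without control 2 or 3.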

How the data were processed

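The authors prepared poly-A libraries, sequenced 100-bp paired-end reads, mapped them to CanFam3.1 with BWA, removed duplicates and weak mappings with Picard and SAMtools and counted reads on Ensembl genes (release 85) with HTSeq 0.6.1. What they deposited are unnormalized read counts, 1 per gene in each sample. The strand setting is not given in the sources used here, so antisense partners cannot be told apart. Samples were grouped by title. Of 32704 genes, 25270 had a count and 15162 passed the study's filter (highest CPM above the 40th percentile), applied here to all genes together and not by gene type, which removed 1 of the 97 listed long noncoding RNA genes. edgeR 4.0.16 (R 4.3.3) with TMM fitted all 37 samples in 8 groups. P-values were Benjamini-Hochberg adjusted, with a threshold of 1e-05 as in the study. The standard error is the absolute log2 fold-change over the square root of F. DESeq2 1.42.0 was an alternative. The steps were tested on simulated data.

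The lists hold the identifiers of the study's functional tables, and those for the cell cycle, haematopoietic cell lineage, T-cell activation, cytokine and ECM-receptor genes are partial. Named genes are SHCBP1, FLT3 and the 2 largest changes per direction, in the comparison with the controls among genes whose CL-1 samples lay beyond all controls with at least 20 counts in the higher group. A rule for genes with symbols was not applied. The members and lists were chosen with earlier results of these data known. Reads outside genes (75.6 to 82.9% of the reads in the files of these 6 samples) stayed out of all totals.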

Additional observations from a re-analysis of the deposited data

Results flagged for a closer look

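Across 30 sets of 4 control values, 17 summed lists and 13 single genes, the gap between 1 control and the rest exceeded Dixon's critical value in 1 set. Chance alone gives about 1 in 20 for independent sets. These sets were not independent, since lists share members. ENSCAFG00000000127 and ENSCAFG00000006714, without a count in any control, could not exceed the value. In the peptide antigen processing and presentation list control 4 had a summed 12866 CPM and the other controls 16714 to 17458 CPM, a gap of 0.838 of the range. CL-1 had 5564 and 5601 CPM.

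The profile of CL-1 also differed from that of the other 4 lines by the test of the difference itself, at 671 genes in edgeR. Among them were 7 of the 9 MHC class II list members, higher in both CL-1 samples than in every OSW sample and in GL-1. Against CLBL-1 and CLBL-1M edgeR called 0 of them, and the list's medians were -1.26 and -1.19 (log2).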

How the results depend on the processing

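The number of genes called depended on the tool, the threshold and the samples, while the main genes kept their direction. Against the controls 1330 genes were called, 2699 with DESeq2 without a prior, 2975 with a prior, 88 in a fit of the 6 samples alone, 8005 at an adjusted p-value of 0.05 and 305 with control 4 alone. Leaving out 1 sample gave 319 to 1243. Against the other 4 lines 671 genes were called, 1225 and 1318 with DESeq2 without and with a prior, 1986 in a fit of the 17 line samples, 4309 at 0.05, and 264 to 280 with 1 CL-1 sample left out. With the replicate number as a block, the counts were 871 and 400. The numbers share no animal or culture, so the samples were not taken as paired. The deviations of same-numbered CL-1 and control samples correlated at 0.108 and -0.0766. These values cannot decide on pairing, since the deviations of 2 CL-1 samples from their mean mirror each other. The other alternatives (RLE size factors, 2 other filters, thinning) stayed within 1.5 times. RLE size factors moved the median of all genes by over 0.1, from -0.23 to -0.39, and the list medians keep their signs relative to it.

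Of the genes named, 0 changed direction under any alternative. At 2 CPM in place of 5 CPM, chosen after seeing the data, 1121 genes were lost against the controls, 55 against all other samples and 69 gained. At 10 CPM the numbers were 543, 21 and 20. With 2 CL-1 samples the depth limits statements on genes under about 1 CPM.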
